A study of Mus musculus with 249 samples.

Results

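The HoxD cluster of the mouse was described with the flanks that surround it on chromosome 2. The rows of a table of 40 kb windows from chr2:72520001 to 76480000 were taken, which gave 99 of the 4544 windows of the chromosome and of the 68162 windows of the genome. The 9 Hoxd genes (Hoxd13, Hoxd12, Hoxd11, Hoxd10, Hoxd9, Hoxd8, Hoxd4, Hoxd3 and Hoxd1) fell in 4 of these windows, chr2:74480001-74640000 of the assembly mm9, which is the same as NCBIM37. The question was how strongly these windows were linked with the chromatin on either side, and how strongly the sides were separated at the cluster, relative to pairs of windows at the same distance elsewhere on chromosome 2.

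The assay was genome architecture mapping (GAM), in which nuclei are cut into thin sections, slices of nuclei (nuclear profiles) are excised by laser microdissection, and the DNA in each tube is amplified and sequenced. All libraries were made from 46C, an embryonic stem cell line of mouse strain 129/Ola in which a green fluorescent protein gene was inserted at Sox1, a gene of the neural lineage. The cells had been kept without serum for the last day before harvest and cut at 220 nm. The titles give 4 profiles a tube, and the series text gives an average of 3, so a library mixes slices of several cells and a shared positive call can come from different nuclei. The titles place the libraries in 11 experiments. Of these, 7 had arms that differed in one step: reagent volumes in protocols a, b and c (10, 11 and 10 libraries), proteinase K of 1 or 2 µl (5 and 6), no freezing or freezing after the incubation (11 and 10), late or early freezing (11 and 12), 20, 23 or 25 PCR cycles (4, 5 and 3), no stain or cresyl violet (10 and 16), and a small or a large kit (12 and 11). The others were a full collection (54) and the unstained libraries of a propidium iodide (20), an eosin (18) and a SYBR Gold test (10). The titles of the propidium iodide test also name freezing, without saying which of its 20 libraries were frozen. The titles and the protocol text disagree in places: the libraries of the SYBR Gold test are titled unstained but their protocol includes that stain, and the protocols give smaller proteinase K volumes, in the same order. Groups follow the titles. All groups carry the same Sox1 insertion, none differs by genotype, and the labels name no separate cultures, so errors over libraries measure only the spread between libraries, which may be technical. The calls record DNA and not RNA, so the cell type was not checked against marker genes and expression of the Hoxd genes was not measured.

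Hox genes encode homeodomain transcription factors that give cells their position along the body axis and along the limb. HoxD is flanked by gene deserts that hold enhancers: those on the centromeric side, beyond Evx2 and Lnp, are known to drive the Hoxd13 end of the cluster in digits, and those on the telomeric side, beyond Mtx2, drive the Hoxd1 end and the middle of the cluster in the proximal limb. In embryonic stem cells the cluster is mostly silent and covered by Polycomb proteins.

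Each of the 4 windows is called here by 1 of its genes. The Hoxd13 window, chr2:74480001-74520000, also held Evx2, a homeobox gene beside the cluster, Hoxd12 and the start of Hoxd11. The Hoxd10 window, chr2:74520001-74560000, held the rest of Hoxd11, Hoxd10, Hoxd9, Hoxd8 and the start of Hoxd3. The Hoxd4 window, chr2:74560001-74600000, held Hoxd4 and the rest of Hoxd3. The Hoxd1 window, chr2:74600001-74640000, held Hoxd1 alone. All 9 genes are read on the plus strand, from Hoxd13, which starts at 74506367, to Hoxd1, which ends at 74603200.

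Most of the cluster was richer in CG dinucleotides than the deserts around it, whose windows held from 244 to 597. The first 3 windows held 1062, 1283 and 873 CG dinucleotides, more than 99.95%, 99.98% and 99.8% of the chromosome 2 windows, whose median was 316, and the Hoxd1 window held 460 (79.4%), within the range of the deserts. The promoters of the genes at the ends of the cluster are shown because the direction of linkage differed most between their windows. They are the 250 bases before the transcription start in RefSeq (GRCm38.p6), which each matched NCBIM37 exactly once on chromosome 2, at chr2:74506032-74506281 for Hoxd13 and chr2:74600787-74601036 for Hoxd1, plus strand, with each CG in capitals.
Hoxd13 promoter: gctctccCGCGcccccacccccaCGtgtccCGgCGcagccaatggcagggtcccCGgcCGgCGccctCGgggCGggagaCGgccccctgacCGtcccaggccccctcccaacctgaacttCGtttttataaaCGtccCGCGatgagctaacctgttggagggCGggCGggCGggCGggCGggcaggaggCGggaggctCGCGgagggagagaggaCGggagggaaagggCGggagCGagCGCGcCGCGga
Hoxd1 promoter: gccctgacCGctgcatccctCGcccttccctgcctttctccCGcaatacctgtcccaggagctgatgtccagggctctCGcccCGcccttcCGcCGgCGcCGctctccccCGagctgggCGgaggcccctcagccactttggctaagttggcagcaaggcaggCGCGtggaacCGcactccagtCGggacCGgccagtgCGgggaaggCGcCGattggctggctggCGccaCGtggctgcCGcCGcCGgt
The CG dinucleotide reads the same on both strands and was found at least once in 92.1% of 32851 RefSeq promoters of this length. The Hoxd13 promoter held 31, more than 94.8% of those promoters, and the Hoxd1 promoter held 24, more than 88.0%. The 10 RefSeq promoters of the 9 genes, of which Hoxd11 has 2, held from 2 to 31, with a median of 12.5, against a median of 6 over all promoters.

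The 4 cluster windows were each detected less often than the median window of the region and of chromosome 2, without a test. They were positive in 47, 48, 47 and 41 of all libraries (18.9%, 19.3%, 18.9% and 16.5%), in the order from Hoxd13 to Hoxd1. The 99 windows of the region were positive in 41 to 68 libraries with a median of 53, and the windows of chromosome 2 had a median of 50 with quartiles of 45 and 56. The Hoxd1 window was thus the least often detected of the cluster and tied for the lowest in the region, at the 11.0th percentile of chromosome 2, whereas the other 3 lay between the 32.2nd and the 36.8th. The calls carry no read numbers, so their depth is unknown, and a window called 0 may have been missing from the slices or covered by too few reads.

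The cluster was seldom captured whole. At least 1 of its windows was positive in 85 libraries (34.1%). Only 1 window was positive in 39 libraries, 2 in 9, 3 in 22 and all 4 in 15. The 10 libraries with Hoxd13, Hoxd10 and Hoxd4 but not Hoxd1 were the most common set of 3, and a single positive window was the Hoxd13 window in 11 libraries, the Hoxd10 window in 10, the Hoxd4 window in 9 and the Hoxd1 window in 9. The reverse set (Hoxd10, Hoxd4 and Hoxd1 without Hoxd13) was seen in 3 libraries, and among sets of 2, Hoxd13 with Hoxd10 was seen in 1 library and Hoxd4 with Hoxd1 in 3. These counts were not tested.

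Linkage was measured as D′, the rate at which a pair of windows was found in the same libraries minus the product of their single rates, divided by the largest size this difference could take. It is 0 for independent windows and 1 for windows that co-occur as often as they can. Because D′ falls with distance, each value was also given as a z-score, its distance in SDs from the mean of chromosome 2 pairs equally far apart. Errors are standard errors (SE) from leaving out each library in turn (jackknife).

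Windows within the cluster were linked less than neighbours elsewhere. The mean D′ of the 6 pairs of cluster windows was 0.535 (SE 0.056), with a mean z-score of -0.66 (95% interval from -2.03 to 0.71), at the 16.1th percentile of 4327 positions of the chromosome. All 6 pairs lay below the chromosome median for their distance, which is a description, since the pairs share windows and the interval of their mean includes 0. The strongest was Hoxd13 with Hoxd10, found together in 31 libraries (D′ 0.578), and the weakest among neighbours was Hoxd4 with Hoxd1, found together in 25 (D′ 0.519, z-score -1.41). At the outer edges, Hoxd1 was found together with the adjacent window of Mtx2, a gene for a mitochondrial import protein, in 31 libraries (D′ 0.695, z-score 0.89). The Hoxd13 window was found together with the adjacent window on its own outer side in 30 (D′ 0.540, z-score -1.13). Hoxd1 was thus linked more strongly with Mtx2 than with Hoxd4 in these libraries. This difference of single pairs was not tested.

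The flanks were then compared as arms of 800 kb (20 windows) before and after the cluster. The centromeric arm, chr2:73680001-74480000, holds Lnp, which encodes a protein of the endoplasmic reticulum, Atp5g3, which encodes a subunit of ATP synthase, part of Atf2, which encodes a transcription factor, and the desert between Atp5g3 and Lnp. The telomeric arm, chr2:74640001-75440000, holds Mtx2 and most of the desert that ends at Hnrnpa3, which encodes an RNA-binding protein. The cluster was linked with the telomeric arm at a mean D′ of 0.466 (SE 0.034) over 80 pairs, where chromosome 2 pairs at these distances averaged 0.413. This was a mean z-score of 0.59 (95% interval from -0.15 to 1.33) and the 87.5th percentile of the chromosome. With the centromeric arm the mean D′ was 0.418 (SE 0.040), a mean z-score of 0.04 (from -0.81 to 0.90) and the 54.6th percentile. The cluster as a whole leaned to the telomeric side, but the difference of 0.048 in D′ (SE 0.038, 95% interval from -0.026 to 0.123) did not pass a test (two-sided normal p = 0.205).

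Of the 80 pairs of the cluster with the telomeric arm, 20 (25%) had a z-score above 1, against 15.9% of 186886 chromosome 2 pairs, and 2 (2.5%) lay below -1, against 15.7%. With the centromeric arm, 10 of 80 (12.5%) lay above 1 and 11 (13.8%) below -1. Pairs share windows, so these shares are descriptions. Of the 20 telomeric pairs above 1, 12 were pairs of Hoxd1, whereas each of the 4 windows had 13 to 18 of its 20 telomeric pairs above the chromosome median.

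**Figure D1:**
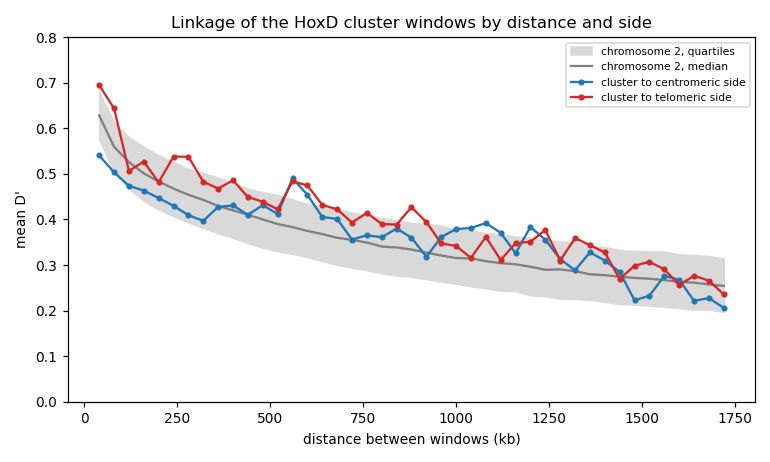
Mean D′ of the cluster windows with windows on the centromeric (blue) and telomeric (red) side, plotted against the distance between windows in kb, with the median and quartiles of all chromosome 2 pairs in grey. From 40 to 800 kb the telomeric mean lay above the chromosome median at 18 of 20 distances and above the centromeric mean at 19. The distances share windows and libraries, so these counts are descriptions.

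By distance, the telomeric side was above the chromosome median at 18 of the 20 distances from 40 to 800 kb and above the upper quartile at 9. The distances share the cluster windows and the libraries, and each mean rests on at most 4 pairs, so these counts are descriptions. The centromeric side was above the median at 10 of 20, above the upper quartile at 2 and below the lower quartile at 1. Beyond the arms, from 840 to 1720 kb, the sides were closer, with the telomeric mean the higher at 14 of 23 distances. The plot of D′ by distance shows that the centromeric mean lay under the median at each distance up to 360 kb and above it at each from 480 to 800 kb, with its largest excess at 560 kb (0.490 against a median of 0.383).

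Taking only the deserts in place of the arms gave much the same picture. With the telomeric desert, chr2:74720001-75480000 (19 windows), the cluster had a mean z-score of 0.63 (SE 0.39), and with the centromeric desert, chr2:73760001-74320000 (14 windows), 0.13 (SE 0.46). The difference of z-scores was 0.50 (SE 0.47, p = 0.289).

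Both flanks ranked high in linkage among arms of the chromosome. Within the centromeric arm the mean D′ was 0.543 (SE 0.030) over 190 pairs, with a mean z-score of 0.78 (95% interval from 0.14 to 1.41), at the 98.0th percentile of arms of this length on the chromosome. Within the telomeric arm it was 0.528 (SE 0.031), with a mean z-score of 0.62 (from -0.07 to 1.31), at the 94.1th percentile. Thus 73 of 190 centromeric pairs and 50 of 190 telomeric pairs had a z-score above 1, and 4 and 3 lay below -1. The arms were also linked with each other across the cluster: the 400 pairs with a window in each had a mean D′ of 0.375 (SE 0.033), against 0.331 expected from the distances, a mean z-score of 0.49 (from -0.20 to 1.17) and the 84.8th percentile. Of these 3 means, only that within the centromeric arm had a 95% interval that left out 0, and pairs across the cluster were on average not below the level for their distance.

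**Figure D2:**
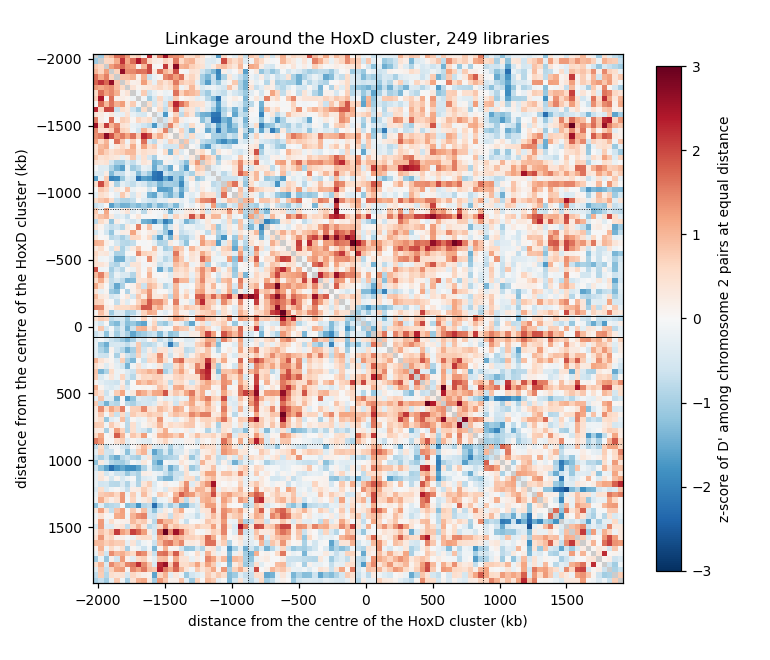
Map of the z-score of D′ for each pair of windows in the region, with both axes as the distance from the centre of the HoxD cluster in kb, solid lines at the edges of the cluster and dotted lines at the ends of the 800 kb arms. Red pairs are linked more, and blue pairs less, than chromosome 2 pairs at equal distance, and the upper left square between dotted and solid lines on both axes is the centromeric arm, whose mean z-score was 0.78.

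The means of the single windows had wide errors, which overlapped for most of them. The Hoxd13 window had a mean z-score of 0.69 (SE 0.54) with the centromeric arm and of 0.43 (SE 0.52) with the telomeric arm. The Hoxd10 window had -0.13 (SE 0.56) and 0.42 (SE 0.48), and the Hoxd4 window 0.04 (SE 0.58) and 0.34 (SE 0.53). The Hoxd1 window had the lowest value with the centromeric arm, -0.43 (SE 0.62), and the highest with the telomeric arm, 1.17 (SE 0.54, 95% interval from 0.11 to 2.23). Of its 20 telomeric pairs, 18 were above the chromosome median and 12 had a z-score above 1, whereas 6 of its 20 centromeric pairs were above the median. The Hoxd13 window showed 17 of 20 centromeric pairs and 15 of 20 telomeric pairs above the median. The mean of the Hoxd13 window was thus above 0 on both sides and that of Hoxd1 on the telomeric side only, and of these only the telomeric mean of Hoxd1 had a 95% interval that left out 0.

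To compare the sides at equal distances and without other cluster windows, the direction of each window was taken as its mean D′ with the windows from 160 to 800 kb after it minus that with the windows from 160 to 800 kb before it. This choice was made after the values were seen. The direction was -0.051 (SE 0.055) for the Hoxd13 window, 0.039 (SE 0.055) for the Hoxd10 window, 0.041 (SE 0.057) for the Hoxd4 window and 0.147 (SE 0.065) for the Hoxd1 window. For Hoxd1 this was a mean D′ of 0.520 (SE 0.051) on the telomeric and 0.373 (SE 0.061) on the centromeric side, and for Hoxd13 it was 0.438 (SE 0.052) and 0.488 (SE 0.051). The values were thus lowest for Hoxd13 and highest for Hoxd1, with the Hoxd10 and Hoxd4 windows between them. Those of the Hoxd13, Hoxd10 and Hoxd4 windows lay within their errors of 0, and neighbours in this order differed by less than the sum of their errors. The direction of Hoxd1 differed from 0 before adjustment (normal p = 0.0237) and not after Benjamini-Hochberg adjustment over all autosomal windows (adjusted p = 0.288), and the other 3 had p from 0.356 to 0.479. With arms of 800 kb directly beside each window, 0 of the 4 cluster windows and 1 of the 99 windows of the region passed an adjusted p of 0.05, against 0.62% of 56934 autosomal windows. At an unadjusted p of 0.05 it was 1 of 4 and 19 of 99, against 12.7%.

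**Figure D3:**
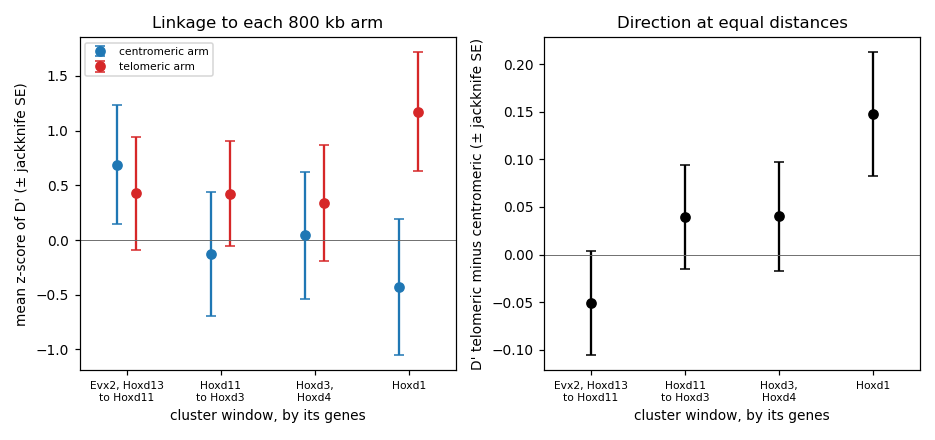
Left, mean z-score of D′ of each cluster window with the centromeric (blue) and telomeric (red) 800 kb arm, and right, the direction of each window (D′ telomeric minus centromeric, arms from 160 to 800 kb), both with the jackknife SE over all libraries. The direction lay at -0.051 for the Hoxd13 window and at 0.147 for the Hoxd1 window, with the other windows between.

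The change of direction from the Hoxd13 to the Hoxd1 window was 0.198 in D′ (SE 0.080, 95% interval from 0.041 to 0.355, normal p = 0.0133). It lay at the 98.5th percentile of chromosome 2 windows 120 kb apart. Over 56184 such autosomal pairs of windows it did not pass adjustment (adjusted p = 0.393), where 0.0196% of pairs passed, and 4.33% had a positive change at an unadjusted p of 0.05. On the scale of z-scores with the 800 kb arms, the change was 1.87 (SE 0.81, p = 0.0204). The change was positive under each of 16 alternatives, all with an unadjusted p under 0.05. It ran from 0.159 without the cresyl violet experiment (p = 0.0423) to 0.259 with arms from 160 to 400 kb (p = 0.00385). The alternatives share most or all of their libraries, so they are not separate support. Taking only windows positive in at least 40 libraries left out no window of the region, so that alternative could only return the same value. Hoxd1 was thus linked more to the telomeric side than Hoxd13 was, by a measure chosen after the values were seen, and the difference did not pass adjustment over the genome.

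The same contrast was taken library by library. In each library the share of positive windows in the telomeric arm minus that in the centromeric arm was set against the call of each cluster window, over all libraries, with permutation tests (100000 resamples) adjusted over 6 correlations. The Hoxd1 call was correlated with this difference, with a Pearson r of 0.264 (permutation p = 4e-05, adjusted p = 0.00012) and a Spearman rho of 0.266 (permutation p = 3e-05, adjusted p = 9e-05). The Hoxd13 call minus the Hoxd1 call had an r of -0.339 (permutation p = 1e-05, the smallest that these resamples can give, adjusted p = 6e-05) and a rho of -0.305 (permutation p = 2e-05, adjusted p = 9e-05). The Hoxd13, Hoxd10 and Hoxd4 calls alone had an r of -0.096, 0.055 and 0.058 (permutation p from 0.133 to 0.385), and the share of the whole cluster had an r of 0.085 (permutation p = 0.181, adjusted p = 0.271).

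These correlations are not centred on 0 by construction, since Hoxd1 is next to the telomeric arm and Hoxd13 next to the centromeric arm. The last of 4 windows at 4278 other positions of chromosome 2 had a median r of 0.060, with quartiles of -0.013 and 0.134, and Hoxd1 lay at the 97.3th percentile. The first minus the last of 4 windows had a median r of -0.111, with quartiles of -0.185 and -0.043, and the cluster lay at the 2.0th percentile. Without 2 of the libraries farthest from the median of the call, r was 0.259 for Hoxd1 and -0.327 for the difference. Many libraries tie for the farthest, so these 2 were not outliers and this was no test of them. The permutation p-values test an r of 0 and not these medians, on the libraries that also gave the change of direction, so they are no separate support for it. Within single experiments, r of Hoxd1 was positive in 8 of the 10 experiments in which the call varied, from -0.623 in the SYBR Gold test to 0.614 in the reagent volume experiment. The difference had a negative r in 8 of 10, from -0.592 in the cresyl violet experiment to 0.049 in the SYBR Gold test, which held 10 libraries.

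Insulation at the cluster was measured in a square of 400 kb. The insulation score is the mean D′ of pairs that reach across a border, and the insulation contrast is the mean D′ across the border minus that within either side at the same distances. In the region the score had 4 local minima that stood out by 0.5 SD of the chromosome's score or more. One lay at 74480000, at the edge of the Hoxd13 window next to Evx2, with a score of 0.421, at the 43.3th percentile of the chromosome and with a prominence of 1.60 SD. The score rose from there to maxima of 0.529 (99.6th percentile) at 440 kb before and 0.488 (92.6th) at 320 kb after the centre of the cluster, both inside the deserts. The score at the cluster was thus lower than at these maxima and near the middle of the chromosome's range. Toward the outer ends of the arms the score was as low, at 0.420 at 760 kb before the centre and 0.409 at 840 kb after it. The lowest score of the region, 0.359 (5.4th percentile, prominence 4.05 SD), lay inside Wipf1, the gene of an actin regulator, at 1280 kb before the centre. The other minima lay at 880 kb after it, close to Hnrnpa3 (0.397), and at 1320 kb after it, inside Pde11a, the gene of a phosphodiesterase (0.391).

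The dip was spread over several borders. At the border 1 window outside the cluster, at 120 kb before its centre, the contrast was -0.071 (SE 0.030, p = 0.0173). It was -0.083 (SE 0.036, p = 0.0197) at the border before the Hoxd13 window, -0.092 (SE 0.032, p = 0.00415) between the Hoxd13 and Hoxd10 windows and -0.086 (SE 0.031, p = 0.00525) at the centre, between the Hoxd10 and Hoxd4 windows. It was -0.059 (SE 0.026, p = 0.0258) between the Hoxd4 and Hoxd1 windows and 0.030 (SE 0.030, p = 0.320) after Hoxd1. At the centre, pairs across the border had a mean D′ of 0.438 (SE 0.037), against 0.525 (SE 0.033) for pairs within either side. The dip thus began on the centromeric side of the cluster and reached the border between Hoxd4 and Hoxd1, and the contrast was above 0, within its error, on the Mtx2 side of Hoxd1. These borders share most of their pairs, so they are not separate findings.

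The dip did not pass adjustment over the genome. None of the 5 borders (0 of 5) passed an adjusted p of 0.05, the lowest adjusted p being 0.153, and neither did any other border of the region (0 of 99), where 0.257% of 57883 autosomal borders passed with a contrast below 0. Elsewhere in the region the contrast was much the same at the minimum inside Wipf1, -0.093 (SE 0.033, unadjusted p = 0.00556), and at that near Hnrnpa3, -0.090 (SE 0.042, unadjusted p = 0.0329). At an unadjusted p of 0.05, 4 of the 5 cluster borders and 8 of the 99 borders of the region had a contrast below 0, against 5.83% of autosomal borders. On chromosome 2 the contrast between the Hoxd13 and Hoxd10 windows lay at the 2.1th percentile and that at the centre at the 2.7th. The call depended on the scale: with a square of 200 kb the contrast at the centre was -0.042 (SE 0.048, p = 0.382) and with 800 kb it was -0.038 (SE 0.027, p = 0.157). With the square of 800 kb the score had no minimum within the cluster, and 8 of the 99 borders of the region passed an adjusted p of 0.05 in either direction, against 2.82% of autosomal borders at this setting. None of the 8 was a cluster border.

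**Figure D4:**
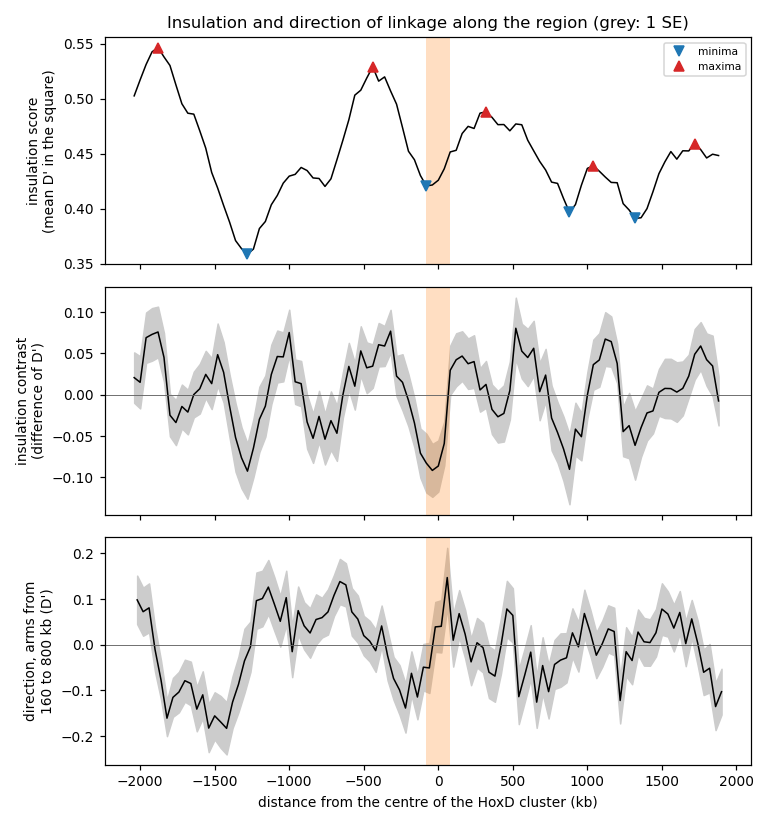
Insulation score (top, mean D′), insulation contrast (middle, difference of D′) and direction of linkage with arms from 160 to 800 kb (bottom, difference of D′) along the region, against the distance from the centre of the HoxD cluster in kb, with the cluster shaded in orange, 1 jackknife SE in grey, and minima (blue) and maxima (red) of the score as triangles. The score dips to 0.421 at the edge of the cluster between maxima of 0.529 and 0.488, and the direction rises from -0.051 to 0.147 across the cluster.

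Single pairs show where the linkage of each gene was strongest. They were chosen as the highest z-score in each arm at 200 kb or more and are given without a test. The Hoxd13 window was found with the desert window chr2:73920001-73960000, 560 kb before it, in 33 libraries, where 11.7 were expected from their 47 and 62 positive libraries (D′ 0.603, z-score 2.45). The same desert window was the highest centromeric partner of the Hoxd10 window (31 libraries, z-score 1.69) and of the Hoxd1 window (25 libraries, z-score 1.31). The Hoxd4 window had its highest centromeric value with the window of Atf2 and Atp5g3 at chr2:73720001-73760000 (31 libraries, z-score 2.13). That desert window was also in the pair with the highest z-score of the region, with chr2:74440001-74480000, just outside the cluster beyond Evx2: the pair was found in 40 libraries, where 13.2 were expected (D′ 0.673, z-score 3.12). Among centromeric partners, 1 desert window thus led for 3 of the 4 cluster windows. It was also the window of that desert positive in the most libraries, 62, against 45 to 54 for the others. The Hoxd10 and Hoxd1 windows had higher z-scores with their telomeric partners.

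On the telomeric side the leading partners differed. Hoxd1 was found with chr2:74920001-74960000, 320 kb after it, in 30 of its 41 libraries, where 9.22 were expected (D′ 0.654, z-score 2.32). The Hoxd10 window had its highest value with chr2:74960001-75000000 (28 libraries, D′ 0.587, z-score 1.99), the Hoxd4 window with chr2:75120001-75160000 (29 libraries, D′ 0.501, z-score 1.30) and the Hoxd13 window with chr2:75360001-75400000 (28 libraries, D′ 0.492, z-score 1.72). All 4 windows lie in the desert between Mtx2 and Hnrnpa3, and the genes share no leading partner there. The lowest pairs of the region lay outside the cluster and its arms: Agps, a gene of ether lipid synthesis, with Pde11a at 280 kb and at 240 kb (z-scores of -2.60 and -2.35), and Ola1 with Chn1 (z-score of -2.32).

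Linkage with a list of developmental and other genes of chromosome 2 ran from the 15.4th to the 74.9th percentile of pairs at equal distance. Percentiles are means over the pairs of cluster windows with the windows of a gene, among pairs at equal distance. Dlx1 and Dlx2, homeobox genes of the forebrain and limb that share a window, lay at 71.5, Lmx1b, a homeobox gene of the dorsal limb, at 74.9, and Sp9, a gene of the limb ectoderm, at 51. Pax6, an eye gene, lay at 43.3, Wt1, a kidney gene, at 22.6, Nr4a2, a gene of dopamine neurons, at 38, Gad1, which encodes a GABA-producing enzyme, at 50.3 and Sp3, a widely expressed transcription factor, at 15.4. On other chromosomes, the mean D′ of HoxD was -0.107 with the HoxA cluster, at the 2.3th percentile of blocks of the same length on chromosome 6, 0.120 with HoxB (86.1th on chromosome 11) and -0.010 with HoxC (34th on chromosome 15). HoxD thus ranked low with HoxA and high with HoxB, as a description of 16 and 20 pairs that share windows.

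The windows outside the region whose calls were most like the share of cluster windows, over all libraries, were chr2:34840001-34880000 in Hc, which encodes complement component C5 (Pearson r of 0.397), chr3:73760001-73800000 (0.387) and chr5:106360001-106400000 (0.375), neither of which holds a protein-coding gene of GENCODE. They were picked as the highest of all windows, and the median r of 54623 windows on other autosomes was 0.091.

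No difference in detection of the cluster between experiments passed a test. The mean share of the 4 windows was 18.4% ± 30.9 (SD, all libraries). It was lowest in the proteinase K experiment, at 4.55% ± 10.1 (SD, n = 11), and highest in the eosin test, at 31.9% ± 36.2 (SD, n = 18), with a median of 0 in all experiments but the cresyl violet and eosin tests, where it was 25%, and the lowest library was at 0 in each. A permutation test of the F statistic over the 11 experiments gave F = 1.26 (p = 0.252). The share over all 99 windows of the region, tested after the data were seen, did differ (F = 2.68, permutation p = 0.004), from 11.6% in the proteinase K experiment to 33.8% in the PCR cycle experiment. Autosomal coverage differed too (F = 3.57, permutation p = 0.00029), from 14.9% in the proteinase K to 24.1% in the early freezing experiment. With each library's coverage subtracted, F for the region was 1.959 (permutation p = 0.0377), also tested after the data were seen, and F for the cluster was 1.02 (permutation p = 0.422). With 4 windows a library, the share of the cluster takes only 5 values, which limits what can be seen.

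**Figure D5:**
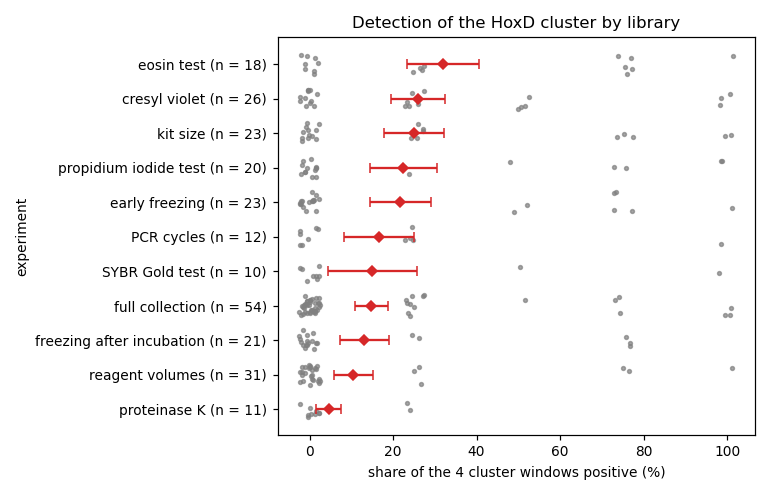
Share of the 4 cluster windows positive (%) in each library (grey, jittered) and its mean ± SE (red) for the 11 experiments. Most libraries lie at 0 in all experiments but the eosin test and the cresyl violet experiment, and the means run from 4.55% in the proteinase K experiment to 31.9% in the eosin test.

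Within experiments, 0 of 11 contrasts between arms passed adjustment by permutation tests, and 1 had an unadjusted p under 0.05. In the early freezing experiment the cluster share was 37.5% ± 40.6 (SD, n = 12) in libraries frozen early and 4.55% ± 15.1 (SD, n = 11) in those frozen late, a difference of 33 percentage points (permutation p = 0.023, adjusted p = 0.253). At least 1 cluster window was positive in 6 of the 12 early and in 1 of the 11 late libraries. The whole region moved with it, at 32.8% against 11.9% of windows (permutation p = 0.0341, adjusted p = 0.125). The region share also differed before adjustment between cresyl violet and no stain (-25.8 percentage points, permutation p = 0.0143, adjusted p = 0.125). Freezing after the incubation minus no freezing gave 17.5 percentage points of the region (permutation p = 0.0239, adjusted p = 0.125). After subtraction of each library's autosomal coverage, the early freezing difference in the cluster share was 20.7 percentage points (adjusted permutation p = 0.513). The other 10 contrasts of the cluster share had p from 0.182 to 1, by exact permutation where an arm held fewer than 10 libraries.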

How the data were processed

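The authors aligned the reads to mm9 with Bowtie2 (version 2.1 in the submitters' processing notes), removed PCR duplicates and called a 40 kb window positive with GAMtools at a fixed number of reads. The deposited values are these binary calls, 1 or 0, for libraries that passed the authors' quality control. No read counts were used, so depth is unknown and no count model was fitted. Libraries were positive in 3.40% to 45.2% of windows (median 17.1%), and no pair had identical calls on chromosome 2. Groups came from the titles.

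D′ was computed here for windows positive in at least 25 libraries. The z-scores and percentiles are within chromosome 2, except that percentiles with HoxA, HoxB and HoxC are within the chromosomes of those clusters. Standard errors and 95% intervals are from a jackknife over libraries. The p-values of linkage are two-sided and normal, adjusted by the Benjamini-Hochberg method over all windows of the 19 autosomes. Permutation tests were two-sided. Scripts used Python 3.11.15, numpy 2.4.6, scipy 1.17.1, pandas 2.3.3 and matplotlib 3.10.9, and were tested on simulated data. Genes came from GENCODE on NCBIM37. Named genes were the Hoxd genes, their landmarks and a list of neighbours, and named pairs were the highest or lowest z-scores. Members and lists were chosen with earlier results of these data known.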

Additional observations from a re-analysis of the deposited data

Results flagged for a closer look

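Of 17 sets of values over groups of 4 to 10 libraries that were examined for 1 library far from the rest, 6 held such a library. For normal values such a test picks about 1 in 20 groups by chance. That rate does not apply to the share of cluster windows, which takes only 5 values and was 0 in most libraries. The share of region windows is bounded and was at or near 0 in many libraries, so the rate may not apply to it either. In that share, 1 of the 4 libraries with 20 PCR cycles was at 25% and the others at 0. One of the 5 libraries with 23 cycles was at 100% and the nearest at 25%, and 1 of the 10 libraries of the SYBR Gold test was at 100% and the nearest at 50%. In protocol-a of the reagent volume experiment, 1 of 10 libraries was at 100% and the nearest at 25%. In the share of the 99 region windows, the highest library of protocol-a was at 47.5%, with the nearest at 23.2%, and the highest of protocol-c was at 56.6%, with the nearest at 20.2%.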

How the results depend on the processing

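No paired analysis was possible because the labels give no replicate numbers that pair libraries. The mean z-score of the cluster stayed above 0 with the telomeric arm (0.330, without the reagent volume experiment, to 0.767, without the cresyl violet experiment) and changed sign with the centromeric arm (-0.365, arms of 400 kb, to 0.325), and p of their difference was 0.0556 to 0.521. Within the cluster it was -0.838 to -0.206, the last without the cresyl violet experiment. The contrast at the centre was -0.110 to -0.0707 with 1 experiment left out (p from 0.00227 to 0.0373), but -0.0418 with a square of 200 kb and -0.0378 with 800 kb, where the region had 8 and 2 minima in place of 4. The cause was not tested. The genome had 353 windows with a direction and 329 borders with a contrast at an adjusted p of 0.05. Adjustment over chromosome 2 only gave 16 of 4309 windows (0.371%) and 28 of 4361 borders (0.642%), against 0.62% and 0.568% over the autosomes. Libraries with a coverage of 5 to 30% gave 235 and 201, arms of 400 kb gave 128 windows, and squares of 200 and 800 kb gave 17 and 1615 borders. Under each of these settings, 0 cluster windows or borders were called. Within single experiments, r ran from -0.756 to 0.325 for the cluster share, from -0.623 to 0.614 for Hoxd1 and from -0.592 to 0.0489 for Hoxd13 minus Hoxd1. Detection of any cluster window was 34.1%. Less autosomal coverage, 3 differences between arms changed sign: protocol-b minus protocol-a (-0.482 percentage points), 25 minus 20 PCR cycles (-8.70) and the large minus the small kit (4.67). Over all region windows, protocol-c minus protocol-a did (1.11). With 1 library left out, 25 minus 20 cycles ranged from -6.25 to 8.33. Binary calls of tubes that mix profiles, without read depth, limit the precision of single pairs.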

Other observations

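The 1 window of the region whose direction passed an adjusted p of 0.05 lay far from the cluster, at chr2:72720001-72760000, next to Sp3, a widely expressed transcription factor gene. Its direction with arms of 800 kb was -0.154 in D′ (adjusted p = 0.0102), which is a lean to the centromeric side. With arms of 400 kb and of 1200 kb, 0 of the 99 windows of the region passed, against 0.222% and 0.819% of autosomal windows, so the call was lost at both lengths and the counts say nothing more of the region. The region's highest insulation score, 0.547 (percentile 99.98 of the chromosome), lay at the border before that window's neighbour, and the lowest, 0.359, lay inside Wipf1. The strongest pair away from the cluster joined Chn1, a chimaerin gene, with Lnp at 720 kb (34 libraries together where 12.5 were expected, D′ 0.624, z-score 2.96).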
